A study of Mus musculus with 11 samples.

Results

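The HA-Macro time course in mouse embryonic fibroblasts (MEFs) follows newly made MacroH2A2 on chromatin after 3, 6 and 12 h of induction. It was taken from the series by its labels and comprises 3 of the 11 ChIP-Seq libraries, 1 for each time. The MEFs carried an HA-tagged MacroH2A2 cassette that is switched on by doxycycline (Dox), given at 2 μg/ml, and the tagged protein was precipitated with an anti-HA antibody. Their strain is given as 129 X C57bl/6. By the study's methods, these MEFs came from chimeric embryos made by injecting HA-MacroH2A2 ES cells into blastocysts, and host cells were removed by puromycin, which the host cells do not resist. All 3 groups therefore share the transactivator at ROSA26, the Tet-operator cassette beside Col1a1, the selection and passage 2. Their labels differ in the hours of Dox, and since each time is 1 library of its own depth, time and library cannot be told apart. The same tag after 3, 6 and 12 h of Dox in ES cells gave the comparison, again with 1 library each. An uninduced library of the same ES cells (no Dox) gave the background. The study detected no tagged histone without Dox but names trace expression as a possible source of that library's promoter signal, next to artifactual recovery of open chromatin, and these cannot be told apart here. An anti-MacroH2A2 library from MEFs gave the total MacroH2A2 pattern. Its label names untreated wild type cells, while the study describes this mapping in inducible MEFs with and without Dox, so only its antibody and cell type were used. An uninduced MEF library was not analysed here.

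MacroH2A is a histone H2A variant with a large globular domain outside the nucleosome core, and MacroH2A2 is one of its forms, encoded in mouse by H2afy2. It is known for broad domains over silent chromatin, including the inactive X chromosome, and for being depleted over many transcribed genes. Because the tagged histone is made mainly after Dox, the signal at 3 h is read as early deposition. Libraries were set to one read total, so a change from 3 h to 12 h is relative to the rest of the genome. A lower value at 12 h can thus arise without loss of protein. The study infers rapid early replacement where relative HA enrichment falls, as tagged histone builds up elsewhere. A transcription start site (TSS) and a transcription end site (TES) mark the ends of a gene. Promoters of broadly used genes often lie in CpG islands, stretches in which the CG dinucleotide is not depleted.

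The 3 h, 6 h and 12 h MEF libraries held 11271295, 10896851 and 20541627 mapped intervals. On chromosomes 1 to 19 these were 10477472, 10188067 and 19279472 distinct intervals, and all libraries were reduced at random to 10188067 so that counts compare directly. A read is one such interval, placed by its midpoint, and a ratio is log2 of 12 h over 3 h reads unless another time is named. Brackets give exact (Clopper-Pearson) 95% intervals that cover counting error only. Each time has 1 library, so nothing was tested across samples, and no value can be set against a spread between cultures. A region is called higher or lower where it passes a stated fold and its counting interval lies on one side of 0. Each minimum number of reads is a sum over both libraries compared. The libraries measure a histone on DNA and not RNA, so fibroblast markers could not be used to type the cells. In 100 kb tiles the MEF HA-Macro libraries followed the anti-MacroH2A2 MEF library with Pearson r of 0.89 at 3 h, 0.88 at 6 h and 0.89 at 12 h over 23748 tiles. Against HA-Macro in ES cells at the same time r was 0.23 at 3 h and 0.61 at 12 h, and against the no-Dox library 0.27 and 0.25. Tiles share base composition and mappability in all libraries, and these r values are descriptions.

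Over 100 kb tiles HA-Macro kept nearly the same distribution from 3 h to 12 h. The median tile held 376, 382 and 381 reads at 3, 6 and 12 h, and reads per tile correlated between 3 h and 12 h with r of 0.98. The ratio had a median of -0.0042 and an SD of 0.14, where counting alone gives 0.11. Of 23748 tiles with at least 100 reads, 170 were called higher (0.716%) and 364 lower (1.53%), where a call needs a change of at least 0.32 on the log2 scale. With all distinct intervals of each library, scaled, 100 were higher and 196 lower. From 3 h to 6 h, 253 were called higher (1.07%) and 103 lower (0.434%). From 6 h to 12 h, 26 were called higher (0.109%) and 333 lower (1.4%). The largest fold among called tiles was 1.44 upward and 1.49 downward.

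In ES cells the same tiles had a ratio with an SD of 0.35, and 4112 were called higher (17.3%) and 3386 lower (14.3%). The MEF and ES ratios of a tile were nearly unrelated, with Pearson r of 0.036 and Spearman rho of 0.055 over 23748 tiles. From 6 h to 12 h the 2 cell types were closer, with an SD of 0.13 in MEFs and 0.15 in ES cells. From 3 h to 6 h the SD was 0.13 in MEFs and 0.28 in ES cells, so the cell types differed most in the first hours.

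**Figure D1:**
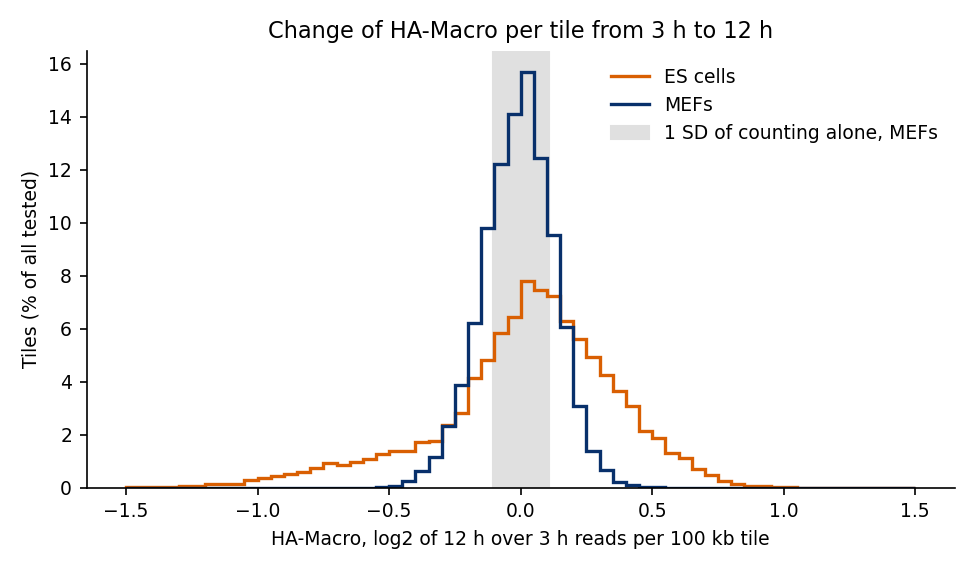
Percent of 23748 tiles of 100 kb in each step of log2 12 h over 3 h reads (x axis), for MEFs and ES cells, 1 library per time. The MEF outline is narrow, with an SD of 0.14 against 0.11 from counting alone (gray, 1 SD to each side), while the ES outline has an SD of 0.35.

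The small tile differences in MEFs were ordered by base composition. Tiles were split into 10 classes of equal size by GC percent. In class 1, the lowest in GC, the mean was 310 reads at 3 h, 301 at 6 h and 291 at 12 h, a ratio of -0.09. In class 7 the means were 441, 448 and 454 reads, a ratio of 0.04. In class 10 they were 646, 629 and 640 reads, a ratio of -0.015. The relation bent over at high GC, and across 23690 tiles the ratio correlated with GC percent with Pearson r of 0.22. In 10 classes by no-Dox ES reads the ratio of summed reads stayed between -0.011 and 0.011. In 10 classes by anti-MacroH2A2 in MEFs it went from -0.08 in class 1 through 0.04 in class 8 to -0.0081 in class 10. With tiles instead centred within 50 finer GC classes, an alternative chosen after seeing the data, 158 were called higher and 208 lower.

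**Figure D2:**
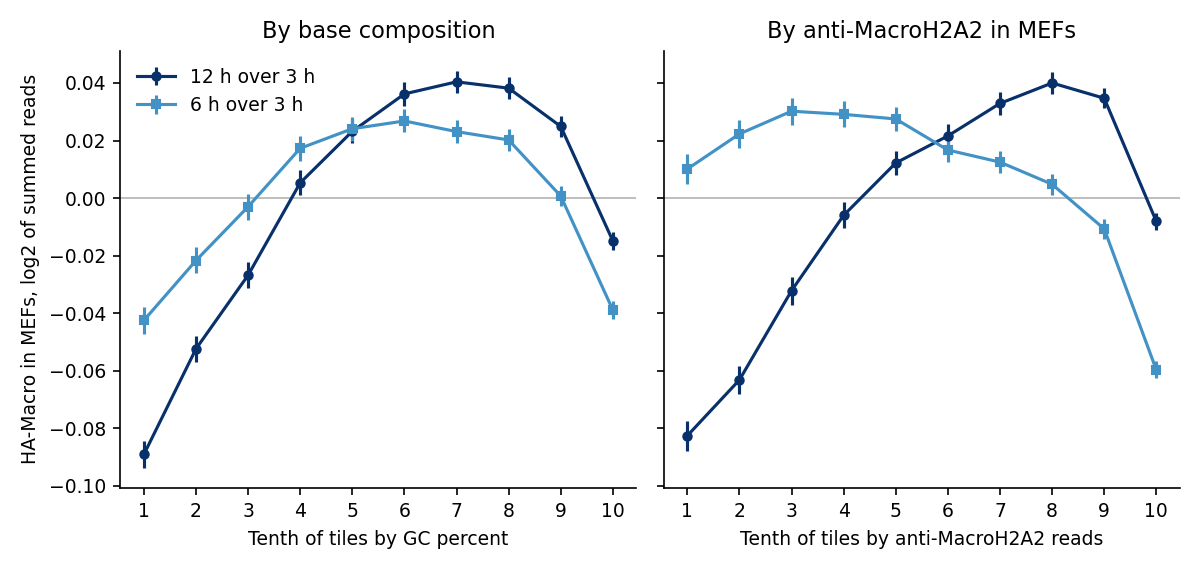
Log2 of summed HA-Macro reads in MEFs at 12 h (dark circles) and 6 h (light squares) over 3 h, for 10 classes of 100 kb tiles ordered by GC percent (left) or anti-MacroH2A2 reads (right). Bars are 95% counting intervals. At 12 h class 1 by GC stood at -0.09 and class 7 at 0.04.

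Called tiles lay beside one another more often than tiles in general, though most stood alone. Of the 170 higher tiles 17.6% had a tile called higher beside them, against 1.41% of all tested tiles. Of the 364 lower tiles 10.4% had one called lower beside them, against 2.96%. The ratios of adjacent tiles correlated with r of 0.28, and those of tiles 2000 kb apart with r of 0.057. Lower tiles were AT-rich and mostly without a TSS, with a median GC of 37.9% and 68.4% holding no TSS, against 41.4% and 56.9% over all tested tiles. Higher tiles had a median GC of 43.1%. By chromosome, the ratio of summed reads ranged from -0.012 on chromosome 4 to 0.022 on chromosome 13.

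The tiles named here are among those whose counting interval lay farthest from 0, so their size is a product of that choice. A tile overlapped by Wwox, a large oxidoreductase gene, held 363, 486 and 517 reads at 3, 6 and 12 h (chr8:117300001-117400000 in mm9), a ratio of 0.51 (0.31 to 0.71). Most of the difference was present at 6 h, and ES cells were higher as well, with a ratio of 0.42. The tile with the TSSs of Pde6c, a cone photoreceptor phosphodiesterase, and 5730455O13Rik held 287, 367 and 409 reads (chr19:38200001-38300000). Other higher tiles were overlapped by Slc2a13, with 275, 338 and 393 reads (chr15:91300001-91400000), and by Smyd3, with 254, 356 and 363 reads (chr1:181200001-181300000). In ES cells the Slc2a13 tile was also higher, at 0.2456, while the Pde6c and Smyd3 tiles were lower, at -0.3233 and -0.585. On the lower side, a tile with the TSSs of 5 olfactory receptor genes held 289, 229 and 197 reads (chr2:87200001-87300000), a ratio of -0.55 (-0.82 to -0.29). In ES cells that tile was higher at 12 h, with a ratio of 0.275 (0.0573 to 0.4936). Olfactory receptor genes have close copies, and reads with several matches were placed at 1 of them at random. A tile on chromosome 12 without a protein-coding gene held 272, 272 and 183 reads (chr12:50100001-50200000), equal at 3 h and 6 h. Another such tile held 320, 254 and 224 reads (chr1:48900001-49000000), and the tile of Gm7263 held 342, 301 and 241 (chr10:105600001-105700000). In ES cells the interval spanned 0 for the tile of Gm7263 and for both tiles without a protein-coding gene. The tile of Vwa5b1 held 777, 659 and 578 reads (chr4:138100001-138200000), a ratio of -0.43 (-0.58 to -0.27), and ES cells went the other way there, from 458 to 866 reads.

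Windows of 10 kb also differed little, but with more higher than lower calls. Of 194603 windows with at least 50 reads, 4704 (2.42%) were called higher and 3960 (2.03%) lower, where a call needs at least 0.58 on the log2 scale. The SD of the ratio was 0.35, where counting alone gives 0.32. In ES cells the shares were 11.5% and 12.5%. Windows inside gene bodies had a ratio of summed reads of 0.03, those between genes 0.0007 (-0.0011 to 0.0024), and those with a TSS -0.0071 (-0.0115 to -0.0026). In ES cells windows between genes stood at 0.25 and those in gene bodies at -0.12.

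Gene bodies, taken from 600 bp past the TSS to the TES in genes of at least 3 kb, held 36.2% of reads at 3 h and 36.7% at 12 h. These are counts summed over genes, so a read in overlapping genes counts once for each. The ratio of summed reads was 0.017 in MEFs and -0.23 in ES cells. Of 11281 bodies with at least 100 reads, 338 were called higher (3.0%) and 279 lower (2.47%) by the rule used for tiles, and in ES cells 2042 (15.5%) and 6191 (47.1%) of 13152. The SD of the MEF ratio was 0.21, where counting alone gives 0.18. From 3 h to 6 h, 501 bodies were called higher (4.4%) and 178 lower (1.56%), and from 6 h to 12 h 166 (1.46%) and 451 (3.96%), so that the 6 h library stood above both others in gene bodies, with summed ratios over 3 h of 0.04 at 6 h and 0.017 at 12 h. By length, the ratio ran from -0.03 (-0.04 to -0.02) in genes of 3 to 10 kb to 0.03 (0.02 to 0.03) in genes of 100 to 300 kb. In 5 classes by anti-MacroH2A2 reads per kb, class 1 stood at -0.05, class 4 at 0.05 and class 5 at -0.010.

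**Figure D3:**
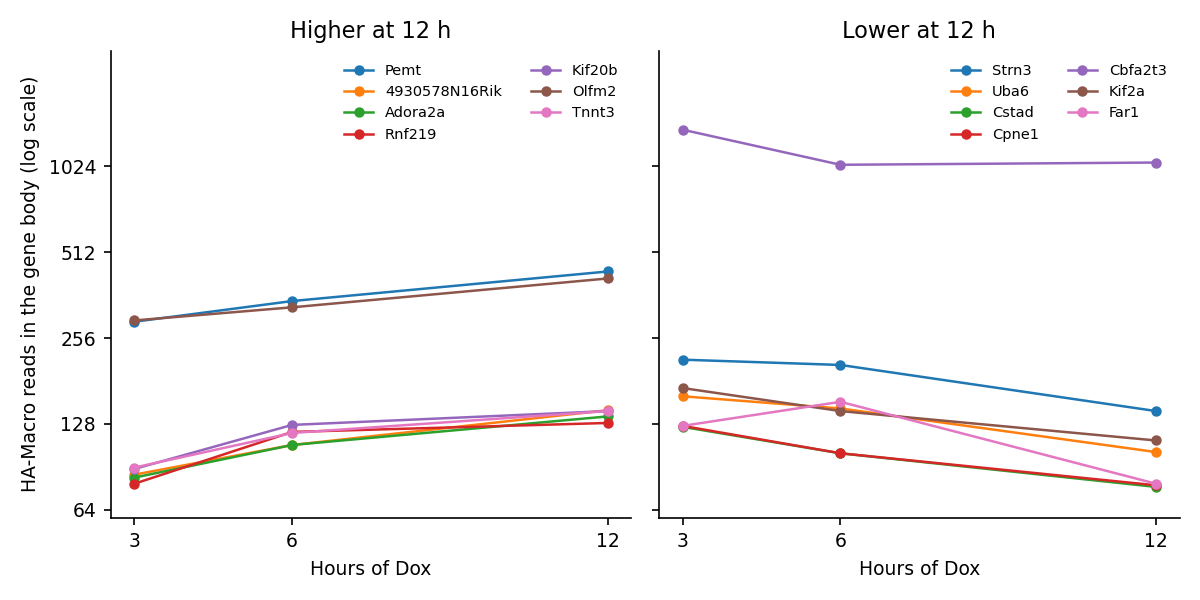
HA-Macro reads in the gene body (log axis) against hours of Dox in MEFs for 7 genes per direction among the 8 whose counting intervals lay farthest from 0, with 1 library per time. Pemt went from 292 to 438 reads and Cbfa2t3 from 1375 to 1055.

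Among bodies higher at 12 h, Pemt, which makes phosphatidylcholine by methylation, held 292 reads at 3 h, 345 at 6 h and 438 at 12 h (ratio 0.58, 0.37 to 0.80). Olfm2, a secreted olfactomedin protein, held 295, 328 and 414 reads (0.49, 0.27 to 0.71). In both genes the 6 h value lay between those at 3 h and 12 h. Adora2a, an adenosine receptor, held 83, 108 and 136 reads, and Tnnt3, the fast skeletal muscle troponin T, held 90, 119 and 142. Kif20b, a mitotic kinesin, held 89, 127 and 142 reads in MEFs, while in ES cells it went from 379 to 143. Rnf219, a RING finger gene, held 79, 120 and 129 reads, and 4930578N16Rik 85, 108 and 143. The ES interval lay above 0 for Pemt and Olfm2, spanned 0 for Adora2a, Tnnt3 and 4930578N16Rik, and lay below 0 for Kif20b and Rnf219.

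Among bodies lower at 12 h, Cbfa2t3, a corepressor of the ETO family, held 1375, 1036 and 1055 reads (-0.38, -0.50 to -0.27), so that its difference was complete at 6 h. Strn3, a subunit of PP2A complexes, held 215, 206 and 142 reads (-0.60, -0.91 to -0.29). Most of the difference in Strn3, Uba6 and Far1 lay between 6 h and 12 h. Uba6, a ubiquitin-activating enzyme, held 160, 145 and 102 reads, and Far1, which makes fatty alcohols for ether lipids, held 126, 153 and 79. Kif2a, a microtubule-depolymerising kinesin, held 171, 142 and 112 reads, Cpne1, a calcium-dependent phospholipid-binding protein, 126, 101 and 78, and Cstad 125, 101 and 77. In ES cells 5 of these 7 were lower at 12 h, with ratios of -1.10 to -1.39, and Cbfa2t3 and Cstad were higher. Over all gene bodies in ES cells 60.5% had fewer reads at 12 h, so nothing is read from 5 of 7. Across 10993 bodies the MEF and ES ratios correlated with Pearson r of 0.14, as a description over genes that share base composition and length.

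At TSSs, taken as 600 bp to each side, HA-Macro held 1.36% (1.35 to 1.37) of MEF reads at 3 h, 1.34% (1.33 to 1.34) at 6 h and 1.23% (1.23 to 1.24) at 12 h. These are counts summed over TSSs, so a read near several TSSs counts once for each, which the intervals do not allow for. The ratio was -0.14 (-0.16 to -0.13), of which -0.03 was present at 6 h. In ES cells the shares were 2.19%, 1.78% and 1.48%, with a ratio of -0.57. The MEF share thus started below the ES share and moved less. Single TSSs hold few reads, a median of 6 at 3 h, so that sums over groups carry the result. Of 3404 TSSs with at least 20 reads, 47 were called higher (1.38%) and 75 lower (2.2%) by the rule used for 10 kb windows, against 85 (1.06%) and 2290 (28.5%) of 8047 in ES cells. The median ratio was 0.0 over these 3404 TSSs in MEFs and -0.81 over the 8047 in ES cells. These are different sets of TSSs, each picked by its reads in the libraries compared. The medians and shares of the 2 cell types therefore do not compare directly. The summed change in MEFs was thus not seen in the median of TSSs with at least 20 reads. The SD of the MEF ratio was 0.59, where counting alone gives 0.57, and nothing is read from the number of single TSS calls.

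The difference was found mainly at CpG-rich promoters. Promoters were classed by the ratio of observed to expected CG in 1 kb around the TSS. The 8166 TSSs with a ratio under 0.4 held a mean of 6.13, 6.04 and 6.07 reads at 3, 6 and 12 h, a log2 change of -0.01 (-0.03 to 0.0036). The 2865 TSSs from 0.4 to 0.6 held 8.03, 7.95 and 7.42 reads (-0.11, -0.14 to -0.09). The 9579 TSSs with a ratio of 0.6 or more held 6.86, 6.68 and 5.71 reads (-0.27, -0.28 to -0.25). For the CpG-rich class, the step from 3 h to 6 h was -0.04 and that from 6 h to 12 h -0.23. The no-Dox library held a mean of 7.71 reads at these CpG-rich TSSs, above HA-Macro in MEFs at every time, and 5.55 at the CpG-poor ones, below it. Its cells were ES cells, so background and cell type cannot be told apart here. In ES cells the 3 classes stood at 0.11, -0.45 and -0.91. The order of the classes was thus the same in both cell types, with smaller values in MEFs.

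**Figure D4:**
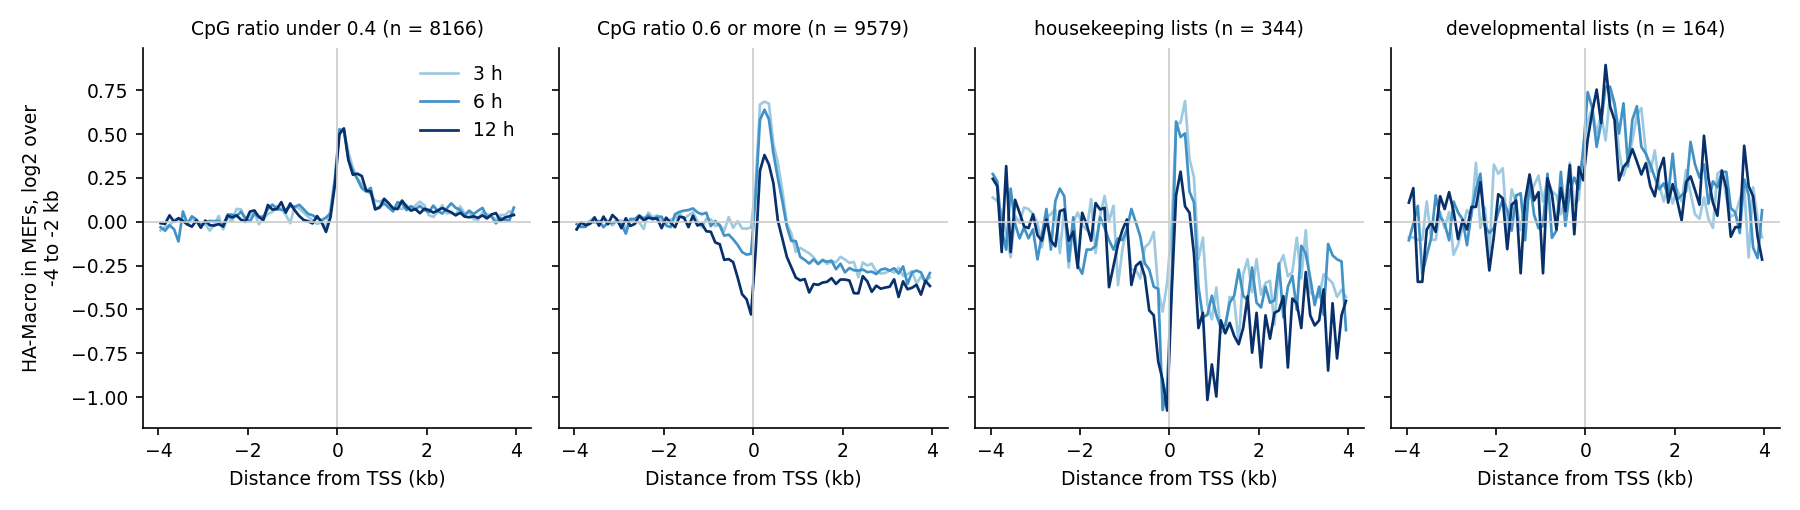
HA-Macro in MEFs around the TSS, as log2 of reads per 100 bp bin over the mean from 4 to 2 kb upstream (y axis), at 3, 6 and 12 h of Dox. Panels show TSSs with a CpG ratio under 0.4 or of 0.6 or more, and the housekeeping and developmental gene lists. At CpG-rich TSSs the peak at 250 bp went from 0.69 to 0.38, while at CpG-poor TSSs the highest bin stood at 0.53 at each time.

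The shape of the profile placed this difference. At CpG-rich TSSs the bin centred 250 bp downstream stood at 0.69 over the upstream flank at 3 h, 0.64 at 6 h and 0.38 at 12 h. The bin centred 50 bp upstream stood at -0.03, -0.18 and -0.53, and the bin centred 350 bp upstream at 0.0029, -0.13 and -0.32, so that the values were lower at 12 h across the upstream side and lowest next to the TSS. The no-Dox ES library had 0.56 in that bin and 0.84 at 250 bp, above MEFs at each time. The anti-MacroH2A2 library had 0.46 in the upstream bin, and its intervals are longer, 400 bp against 150 bp. At CpG-poor TSSs the highest bin stood at 0.53 at each of the 3 times. Over the whole window, CpG-rich TSSs went from 0.27 (0.26 to 0.29) over the flank at 3 h to 0.18 at 6 h and -0.06 (-0.07 to -0.04) at 12 h.

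CpG-rich sequence away from TSSs shared part of the difference. Windows of 1 kb with at least 55% GC and a CpG ratio of at least 0.6 were split by distance to TSSs. The 6788 windows within 600 bp of a TSS held a mean of 6.43, 6.41 and 5.45 reads (-0.24, -0.26 to -0.22). The 1696 windows over 5 kb from any TSS held 10.2, 9.97 and 8.93 reads (-0.19, -0.22 to -0.16). The counting intervals overlap, and the higher level lay far from TSSs. Among windows of 50 to 55% GC, those near TSSs stood at -0.13 (-0.15 to -0.10) and those far from TSSs at -0.04 (-0.04 to -0.03). GC percent moves with these differences at both kinds of place, and its part was not tested further.

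Among CpG-rich promoters, the gene groups differed. Lists for ribosomal, respiratory chain, translation initiation, proteasome and splicing genes, here called housekeeping, had 303 CpG-rich TSSs with a mean of 5.27, 4.79 and 4.01 reads (-0.40, -0.50 to -0.29). Hox genes and developmental transcription factors had 113 CpG-rich TSSs with a mean of 10.8, 11.2 and 11.3 reads (0.06, -0.05 to 0.18). The intervals do not overlap, and the housekeeping TSSs started lower. They were also lower in anti-MacroH2A2, with a mean of 5.68 against 12.3 reads, and close in the no-Dox library, with 7.14 and 7.61. Ordered by anti-MacroH2A2, 5 classes of CpG-rich TSSs had ratios of -0.43, -0.38, -0.36, -0.29 and -0.10 from the lowest to the highest. The ratio was thus nearer 0 at CpG-rich promoters that held more MacroH2A2. In the same order these classes held a mean of 4.58, 5.28, 5.98, 7.04 and 11.4 HA-Macro reads at 3 h in MEFs. The no-Dox ES library held 6.58, 7.16, 7.67, 8.16 and 8.96, so only the highest class stood above it.

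Ribosomal protein genes stood lowest among the 25 lists. The 73 cytosolic ribosomal protein TSSs held 452, 392 and 298 reads in sum at 3, 6 and 12 h (-0.60, -0.82 to -0.39), and 55 of them had fewer reads at 12 h than at 3 h. Over all protein-coding TSSs 51.5% had fewer. The mean of the cytosolic list was 6.19 reads at 3 h, with 6.96 in the no-Dox library. The 74 mitochondrial ribosomal TSSs held 365, 314 and 268 reads (-0.45, -0.68 to -0.21). The 55 TSSs of translation initiation factors held 299, 291 and 249 reads (-0.26, -0.51 to -0.02). The 71 respiratory chain TSSs, the subunits of mitochondrial energy production, held 382, 352 and 324 reads (-0.24, -0.46 to -0.02). Zinc finger and histone genes also had intervals below 0. The 345 Zfp zinc finger TSSs held 1561, 1507 and 1264 reads (-0.30, -0.41 to -0.20), and the 67 replication-dependent histone genes, which have near-identical copies, held 459, 410 and 381 reads (-0.27, -0.47 to -0.07). Mitochondrial ribosomal and Zfp TSSs held a mean of 4.932 and 4.525 reads at 3 h, against 6.811 and 6.716 in the no-Dox ES library. For translation initiation, respiratory chain and histone TSSs the means were 5.436, 5.38 and 6.851, against 7.709, 7.056 and 9.373. Background and cell type cannot be told apart here.

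**Figure D5:**
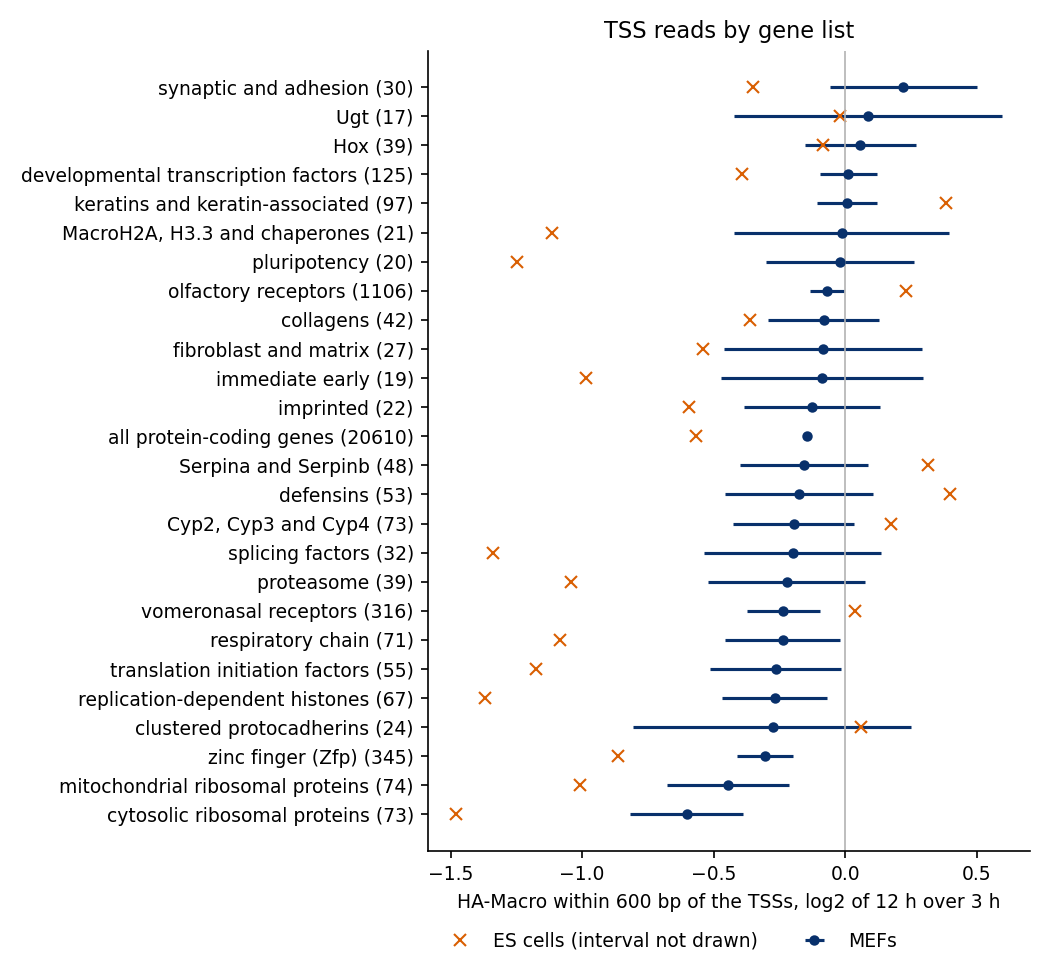
Log2 12 h over 3 h of summed HA-Macro reads within 600 bp of the TSSs of each gene list (number of TSSs in brackets), for MEFs with 95% counting intervals and for ES cells as crosses. Cytosolic ribosomal protein genes stand lowest at -0.60, and Hox genes at 0.06.

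Developmental and keratin genes had intervals that span 0. The Hox interval also holds the -0.14 of all TSSs, while those of developmental transcription factors and keratins lie above it. Hox TSSs held 368, 417 and 383 reads (0.06, -0.15 to 0.27), and developmental transcription factors 1412, 1408 and 1424 (0.01, -0.10 to 0.12). Keratin and keratin-associated genes held 1262, 1229 and 1268 reads (0.0068, -0.1067 to 0.1204), at a mean of 13.0 reads per TSS at 3 h against 6.73 over all genes. These 3 lists are high in anti-MacroH2A2 as well, with means of 11.3, 12.0 and 13.4 reads against 7.08. Chemosensory receptors had few reads per TSS, and neither list had an interval below the value of all TSSs, -0.14. The 1106 olfactory receptor TSSs held 3955, 3967 and 3774 reads (-0.068, -0.13 to -0.0029), and the 316 vomeronasal receptor TSSs held 937, 922 and 796 (-0.24, -0.37 to -0.10). Both families have close copies, in which a read can be placed wrongly. Per TSS they held a mean of 3.576 and 2.965 reads at 3 h, against 5.8 and 5.965 in the no-Dox ES library. Across the 25 lists, the counting interval lay below 0 in 8 and above 0 in none. With repeated intervals counted it lay below 0 in 5, without the olfactory receptor, respiratory chain and translation initiation lists. With all distinct intervals it lay below 0 in 11, adding Cyp2, Cyp3 and Cyp4 genes, collagens, the proteasome and splicing factors and losing olfactory receptors, and with the median tile set to no change in 7, again without olfactory receptors. With 6 h as the early library it lay below 0 in 4, without the mitochondrial ribosomal, histone, respiratory chain and translation initiation lists, and above 0 in the synaptic and adhesion list (0.34, 0.06 to 0.63). In a second random draw of the reads it again lay below 0 in 8, with Cyp2, Cyp3 and Cyp4 genes and the proteasome in place of respiratory chain and translation initiation genes. All protein-coding TSSs stood at -0.14, and only cytosolic ribosomal, mitochondrial ribosomal and Zfp genes had intervals wholly below that value. Each of these lists held fewer reads per TSS at 3 h than the no-Dox ES library.

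The lists tied to cell identity had intervals that span 0 at TSSs. Both intervals also hold the -0.14 of all TSSs, so they do not set these lists apart from TSSs in general. Pluripotency genes, many of which are specific to early embryonic and germ cells, held 215, 209 and 212 TSS reads (-0.02, -0.30 to 0.26). Pou5f1, the Oct4 gene, held 28, 24 and 29 reads, Tdgf1, a Nodal co-receptor, 15, 11 and 25, and Lin28a, an RNA-binding protein, 18, 17 and 18. Fibroblast and matrix genes held 124, 141 and 117 TSS reads (-0.08, -0.46 to 0.29), a mean of 4.59 per TSS at 3 h against 10.8 for the pluripotency list. HA-Macro thus had fewer reads per TSS at the fibroblast list than at the pluripotency list.

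Fibroblast gene bodies were slightly lower at 12 h, with 4161, 4182 and 3816 reads in sum (-0.12, -0.19 to -0.06), and 19 of 25 had fewer reads at 12 h. Over all gene bodies 47.5% had fewer and 49.3% more. Of the 21 fibroblast bodies tested 0 were called in either direction, a number of genes too small to set against the background of 3.0% and 2.47%. Pluripotency bodies held 1725, 1563 and 1624 reads (-0.09, -0.19 to 0.01), and 11 of 16 had fewer at 12 h. Fbn1, which encodes fibrillin, held 670, 644 and 575 reads (-0.22, -0.38 to -0.06), and Col5a1, a fibrillar collagen, 643, 596 and 580 (-0.15, -0.31 to 0.02). Tgfb2, a growth factor, held 300, 378 and 324 reads, with its highest value at 6 h. In ES cells the summed ratio of the fibroblast list was 0.14. Its bodies held a mean of 166.4 reads at 3 h in MEFs, against 219.2 in the no-Dox ES library. The 42 collagen bodies held 25264, 25269 and 25260 reads (-0.0002, -0.0254 to 0.0250), and 21 had fewer reads at 12 h and 20 more. The fibroblast list itself holds collagens, such as Col5a1 and Col5a2, so these lists are not separate groups.

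For MacroH2A genes and histone chaperones, 1 of 13 tested bodies was called, and it was lower, where 2.47% of all bodies were. Hira, which deposits H3.3, held 252, 261 and 194 reads (-0.38, -0.66 to -0.10). H2afy2, the MacroH2A2 gene itself, held 187, 200 and 156 reads (-0.26, -0.58 to 0.05), and H2afy, which encodes MacroH2A1, held 278, 314 and 246 (-0.18, -0.43 to 0.08). The induced cassette carries a MacroH2A2 cDNA, whose reads can map to the exons of H2afy2. The whole list stood at -0.03 (-0.12 to 0.06) in MEFs and at -0.92 in ES cells.

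Other lists of gene bodies stood between -0.25 and 0.13. Developmental transcription factors held 23693, 23771 and 23706 reads (0.0008, -0.0252 to 0.0268), with Sox5 at 4464, 4583 and 4719. Cytosolic ribosomal protein bodies held 856, 858 and 722 reads (-0.25, -0.39 to -0.10), and the whole of that difference came after 6 h. Vomeronasal receptor bodies held 7702, 7789 and 6981 reads (-0.14, -0.19 to -0.09), and 8 of 60 tested (13.3%) were called lower, against 2.47% of all bodies. Their mean was 61.6 reads at 3 h and 112.8 in the no-Dox ES library, against 220 and 244 over all bodies. The tiles at their TSSs had a median GC of 39.4%, against 44.3% over all genes, and the family has close copies. The part of these in the calls was not tested. Ugt bodies, which encode glucuronosyltransferases, stood at 0.13 (0.06 to 0.19), but the Ugt1a genes share exons and count the same reads several times. Among the longest genes, the synaptic and adhesion list held 127857, 127875 and 126758 reads, with Macrod2 at 8759, 9192 and 9453 and Cntnap2 at 7078, 6844 and 6635.

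TSSs among those whose counting intervals lay farthest from 0 are shown with the bases before them, since promoters were classed by CpG content. For each, the 250 bases before the TSS are printed from the mm9 genome (NCBIM37, GENCODE annotation), 5′ to 3′ on the gene's strand, with each CG in capitals. Degs2 and Galnt9 stand for the higher side and Myl3 and Rbpjl for the lower side. Rpl11 and Hoxd3 stand for 2 of the gene lists and were not chosen for a change.
Degs2 (chr12:109940517-109940766, minus strand): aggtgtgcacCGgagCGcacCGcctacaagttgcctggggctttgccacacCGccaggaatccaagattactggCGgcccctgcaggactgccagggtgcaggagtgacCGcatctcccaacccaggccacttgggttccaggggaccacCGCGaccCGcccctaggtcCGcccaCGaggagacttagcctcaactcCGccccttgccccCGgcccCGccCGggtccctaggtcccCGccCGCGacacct
Galnt9 (chr5:110973114-110973363, plus strand): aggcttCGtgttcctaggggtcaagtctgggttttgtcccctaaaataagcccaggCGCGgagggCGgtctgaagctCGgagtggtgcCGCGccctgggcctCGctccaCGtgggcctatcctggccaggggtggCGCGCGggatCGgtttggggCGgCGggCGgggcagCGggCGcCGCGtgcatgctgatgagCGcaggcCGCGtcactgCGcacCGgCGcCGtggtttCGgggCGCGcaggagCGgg
Myl3 (chr9:110665900-110666149, plus strand): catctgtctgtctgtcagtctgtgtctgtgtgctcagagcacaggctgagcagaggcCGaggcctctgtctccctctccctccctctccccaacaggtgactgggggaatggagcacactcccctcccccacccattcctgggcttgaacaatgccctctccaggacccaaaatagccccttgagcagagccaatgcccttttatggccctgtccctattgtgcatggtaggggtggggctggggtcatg
Rbpjl (chr2:164228391-164228640, plus strand): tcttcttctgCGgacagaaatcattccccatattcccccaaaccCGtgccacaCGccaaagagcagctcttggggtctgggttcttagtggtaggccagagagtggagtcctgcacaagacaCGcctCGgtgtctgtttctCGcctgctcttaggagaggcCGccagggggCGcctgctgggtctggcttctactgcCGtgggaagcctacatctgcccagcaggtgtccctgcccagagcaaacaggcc
Rpl11 (chr4:135609344-135609593, minus strand): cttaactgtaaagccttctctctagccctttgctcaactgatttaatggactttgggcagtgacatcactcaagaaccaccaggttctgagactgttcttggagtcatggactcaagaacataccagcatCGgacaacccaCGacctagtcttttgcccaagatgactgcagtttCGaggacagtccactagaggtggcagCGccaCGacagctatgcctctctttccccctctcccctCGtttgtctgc
Hoxd3 (chr2:74549736-74549985, plus strand): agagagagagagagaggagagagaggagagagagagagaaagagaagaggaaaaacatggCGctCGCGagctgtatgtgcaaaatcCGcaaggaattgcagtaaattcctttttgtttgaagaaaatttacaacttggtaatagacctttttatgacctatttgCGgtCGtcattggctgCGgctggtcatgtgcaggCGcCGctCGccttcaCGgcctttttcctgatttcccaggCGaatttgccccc
Degs2, a sphingolipid hydroxylase, held 16, 31 and 39 TSS reads (1.29, 0.41 to 2.22) with 18 CG in the printed bases, and Galnt9, a GalNAc transferase, held 26, 48 and 50 (0.94, 0.23 to 1.69) with 31 CG. Myl3, a cardiac myosin light chain, held 48, 23 and 23 reads (-1.06, -1.85 to -0.32) with 1 CG, and Rbpjl, a pancreatic transcription factor, 34, 26 and 15 (-1.18, -2.16 to -0.27) with 9 CG. The 2 most extreme TSSs not printed, Gm10152 (13, 17 and 33 reads) and Gm10462 (34, 21 and 10), had 9 and 11 CG. Rpl11, a ribosomal protein, held only 2, 8 and 6 reads, more at 12 h than at 3 h, with 6 CG where the median of its list is 16 and without the TTCCGG motif described with the lists, so it is not typical of its list. Hoxd3 held 14, 8 and 10.

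The other TSSs at the higher end were Gm10152, Npas1, Krt8, Prmt8, Lad1 and Fev, with 13 to 19 reads at 3 h and 27 to 35 at 12 h. Npas1, a brain transcription factor, held 15, 29 and 32 reads, and Krt8, an epithelial keratin, held 13, 17 and 28. Those at the lower end were Gm10462, Slc16a5, Col18a1, Vstm2l, Krt80 and Pkp3, with 31 to 41 reads at 3 h and 10 to 22 at 12 h. Col18a1, the source of endostatin, held 35, 23 and 17 reads, and Pkp3, a desmosomal plakophilin, held 31, 20 and 15. These 16 are the most extreme of the TSSs with at least 40 reads at 3 h and 12 h together, and were picked for that. Of the 8 higher ones 6 had a CpG ratio of 0.6 or more, and of the 8 lower ones 1, where 38.9% of the 457 TSSs with at least 40 reads did, and nothing is read from so few chosen TSSs. In a second random draw of the reads, 9 of the 16 kept an interval on one side of 0, and with all reads of each library 9 did.

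The lists also differ in promoter sequence, which the lists were not chosen on. In the 250 bases before the TSS, the median number of CG was 9 over 20605 protein-coding genes, 16 for cytosolic ribosomal proteins and 15 for both mitochondrial ribosomal proteins and developmental transcription factors. TTCCGG on either strand, which holds the core of ETS-factor motifs, was present in 14.0% of all promoters. It was present in 34.2% for cytosolic ribosomal proteins, 33.8% for mitochondrial ribosomal proteins, 30.9% for translation initiation factors and 26.1% for Zfp genes. It was in 10.4% for developmental transcription factors and 2.56% for Hox genes. It was in 2.99% for histones and 1.58% for vomeronasal receptors, which had intervals below 0. It was in 37.5% for splicing factors, 30.8% for the proteasome and 28.6% for MacroH2A and chaperones, whose intervals span 0, though those of splicing factors and the proteasome lay below 0 with all distinct intervals (-0.30, -0.59 to -0.02, and -0.26, -0.52 to -0.0038). No order of the lists by this motif is read from these shares. GGGCGG on either strand, the GC box, was in 39.6% of all promoters, 38.4% for cytosolic ribosomal proteins and 57.6% for developmental transcription factors. TATAAA on either strand was in 12.6% of all promoters and 61.9% for keratins. TTCCGG and GGGCGG each contain a CG. These shares describe letters in the window and not binding.

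At TESs, taken as 600 bp to each side and summed over genes as at TSSs, HA-Macro held 1.02% of reads at 3 h and 1.01% at 12 h. The ratio was -0.011 (-0.023 to 0.0016). Of 1771 TESs with at least 20 reads, 22 were called higher (1.24%) and 36 lower (2.03%). With all distinct intervals 74 and 85 were, and with 1000 bp to each side 121 and 110. More TESs reach 20 reads in those settings, so these counts do not compare with the shares above. Nothing is read from the balance of single TES calls. The SD of the ratio was 0.61, where counting alone gives 0.59. In ES cells the ratio was -0.32, with 93 (2.36%) and 686 (17.4%) of 3948 called, which is a different set of TESs. The profile had a dip in the bin just before the TES, at -0.46 relative to the flank from 2 to 4 kb downstream at 3 h, -0.58 at 6 h and -0.61 at 12 h. Among lists, Cyp2, Cyp3 and Cyp4 genes, which encode drug-metabolizing enzymes, held 329, 289 and 246 TES reads (-0.42, -0.66 to -0.18), translation initiation factors 239, 217 and 189 (-0.34, -0.62 to -0.06), histone genes 337, 350 and 284 (-0.25, -0.48 to -0.01) and vomeronasal receptors 970, 948 and 859 (-0.18, -0.31 to -0.04). Cytosolic ribosomal proteins held 260, 306 and 256 (-0.02, -0.28 to 0.23), and a difference was not detectable at their ends at this depth.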

How the data were processed

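The authors mapped reads to mm9 with Bowtie 1.0 (per the labels), picked 1 match at random where a read had more, and deposited intervals extended to a fixed length. The deposited files give interval positions, and other values such as counts or signal were computed here. Intervals were 150 bp in anti-HA libraries and 400 bp in the anti-MacroH2A2 library, whose title names 2 replicates in 1 file. No replicate number is given for the time course.

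Distinct intervals were placed by midpoint on chromosomes 1 to 19 and drawn at random to 10188067 per library (seed 11). Tiles in the top 1% of no-Dox reads were discarded (247 of 24712), leaving 24465. Genes were the 21281 protein-coding symbols of GENCODE vM1 on NCBIM37, with 1 TSS each. Called means a log2 change of 0.32 with at least 100 reads (tiles, bodies), or of 0.58 with at least 50 (10 kb windows) or 20 reads (TSSs, TESs), with a 95% counting interval on one side of 0. The calling function was run on simulated counts with planted changes and counting error only. That checks the code and not the calls in these libraries, which vary beyond counting. NumPy 2.4.6, pandas 2.3.3 and SciPy 1.17.1 were used.

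Named were the 8 gene bodies (at least 200 reads), 8 TSSs (at least 40 reads) and 5 tiles per direction with the interval bound nearest 0 farthest from 0, up to 4 members per list with the most reads, and any member of the chaperone, fibroblast and pluripotency lists. Of these, 2 gene bodies and 1 tile are not reported here. Genes that overlap a named tile without a TSS in it were added. The members and lists were chosen with earlier results of these data known. Alternatives were repeated intervals, full depth, a second draw, discarded tiles kept, centring, 6 h as the early library, and other tile sizes, folds, windows, minimums and gene sets. HA-H3.3 and anti-MacroH2A2 in ES cells were not used here.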

Additional observations from a re-analysis of the deposited data

Results flagged for a closer look

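In 4 gene lists and in gene bodies as a whole, summed HA-Macro reads moved in opposite directions from 3 h to 12 h in MEFs and ES cells, with both counting intervals away from 0. With 1 library per time in each cell type the difference itself was not tested. Olfactory receptor TSSs had a log2 ratio of -0.068 (-0.13 to -0.0029) in MEFs and 0.23 (0.17 to 0.29) in ES cells. The MEF interval spanned 0 with all distinct intervals (-0.054, -0.11 to 0.0019), with repeats counted (-0.046, -0.11 to 0.020) and with the median tile set to no change (-0.063, -0.13 to 0.0014), and the value lies above the -0.14 of all TSSs. Gene bodies of the Cyp2, Cyp3 and Cyp4 list had -0.070 (-0.13 to -0.013) and 0.15 (0.10 to 0.20). Bodies of fibroblast and matrix genes had -0.12 (-0.19 to -0.06) and 0.14 (0.08 to 0.19). Bodies of synaptic and adhesion genes had -0.0125 (-0.024 to -0.0012) and 0.08 (0.07 to 0.09). The Cyp, fibroblast and synaptic bodies held a mean of 71.3, 166.4 and 4261.9 reads at 3 h in MEFs. In the no-Dox ES library they held 110.2, 219.2 and 5098.3, so background and cell type cannot be told apart here. Single bodies in MEFs varied beyond counting with an SD of 0.10, and the counting intervals do not cover that spread. The list ratios of bodies were not recomputed under the alternative settings. All gene bodies together had 0.0174 (0.0153 to 0.0195) and -0.2336 (-0.2355 to -0.2317). Groups of 1 library cannot be screened for a sample that stands apart.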

How the results depend on the processing

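No paired analysis was possible because each time has 1 library and the labels give no replicate that the times share. Of 23748 tiles 170 were higher and 364 lower, and with all distinct intervals scaled 100 and 196 were, with 24.5 called ES tiles per MEF tile against 14.0. That setting gave 92 and 188 TSSs and 74 and 85 TESs. With every interval counted, repeats included, the TSS ratio was -0.126 and 5 lists lay below 0 in place of 8. With discarded tiles kept the TSS ratio was -0.182. With 6 h as the early library, 26 tiles were higher, ES cells had 1.79 called tiles per MEF tile, 166 bodies were higher and 451 lower, and 4 lists lay below 0. There Cbfa2t3 turned to 0.026 and Prmt8 to -0.245. Tiles of 1 Mb gave 0 called in each direction, and so did a fold of 1.5 at 100 kb, which left 75 and 72 bodies. With 1000 bp to each side, 111 TSSs were higher and 225 lower, 121 TESs higher and 110 lower, and the TSS ratio was -0.113. At 40 or more reads, 10 TSSs were higher and 12 lower. Centring tiles within 50 GC classes, an alternative chosen after seeing the data, left 208 lower. A second draw left all 13 main values within 1.5 times or their interval. In it 15 of 16 named bodies, 9 of 16 TSSs and 10 of 10 tiles kept an interval on one side of 0. With 6 h as the early library 8 bodies, 2 TSSs and 5 tiles did, and with repeats counted 6 TSSs did. The causes were not tested.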
